A study of Mus musculus with 8 samples.

Results

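The 68 mouse protein-coding genes whose symbols begin with Eif1 to Eif6, Eef1 or Eef2 encode the initiation and elongation factors of protein synthesis, with their kinases, repressors and methyltransferases. They were taken by symbol from 32780 genes measured, 21860 of them protein-coding. RNA came from 2 groups of 4 libraries each. The first is TC1 differentiated for 10 days, and the second is TC1 at day 0, the undifferentiated control. TC1 is a single mouse embryonic stem cell line, carried here as wild-type in both groups. Cells of both days were dissociated to a single-cell suspension, and total RNA was extracted with TRI Reagent and made into libraries with the SMART-Seq Total RNA High Input kit, whose RiboGone Mammalian step depletes ribosomal RNA. The labels name no cell type for day 10, and they leave unsaid whether replicate libraries of 1 day are separate cultures. The p-values therefore measure the spread between these libraries, which may be technical. With no batch or date in the labels, day and any batch behind it cannot be told apart.

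Translation begins when eIF2 carries initiator tRNA to the small ribosomal subunit, which also binds eIF3, eIF1 and eIF1A. The eIF4 factors recognise the mRNA cap, unwind the 5′ end and recruit that complex, which then scans to a start codon, where eIF5 and eIF5B complete the joining of the large subunit. In elongation, eEF1A delivers each aminoacyl-tRNA, the eEF1B subunits recharge eEF1A with GTP, and eEF2 moves the ribosome forward by a codon. Embryonic stem cells are known for a low rate of protein synthesis, which rises as they differentiate.

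Total estimated counts ranged over 13525255 to 17843651 per library at day 10 and over 11242568 to 15808039 at day 0. All 8 pluripotency markers fell, and their summed level ranged over 184 to 249.1 CPM (counts on a scale of 1000000 per library) at day 10, against 2380 to 2743 CPM at day 0. Fibroblast and matrix markers summed to 4638 to 8818 CPM at day 10, against 4.89 to 7.27 CPM at day 0, and 5 of 5 rose. Cardiomyocyte markers summed to 612 to 861 CPM at day 10 and 53.6 to 65.1 CPM at day 0, with 8 of 8 tested markers higher. Endothelial markers summed to 473 to 588 CPM at day 10 and 40.3 to 44.2 CPM at day 0, with 5 of 5 higher. Smooth muscle markers summed to 422 to 716 CPM at day 10 and 14.3 to 22.7 CPM at day 0, with 4 of 5 higher. Blood markers summed to 72.9 to 108 CPM at day 10 and 0.277 to 0.589 CPM at day 0 (4 of 4 tested higher), and visceral endoderm markers to 241 to 557 CPM at day 10 and 8.02 to 10.9 CPM at day 0 (5 of 5 higher). Skeletal muscle markers were near 0 on both days, at 1.40 to 2.26 CPM at day 10 and 3.27 to 4.06 CPM at day 0, with 1 of 2 tested lower and Myod1 at 0 at day 10. Neural markers summed to 42.7 to 158 CPM at day 10 and 227 to 261 CPM at day 0, with 1 of 6 higher and 3 lower. Markers of several cell types were thus present at day 10, and the part of any of these cell types in the results below was not tested. In bulk RNA, fewer cells of a type and less RNA per cell cannot be told apart.

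Most translation factor genes fell. Of 63 members with enough counts to test, 51 were lower and 7 higher at day 10, and 5 did not pass an adjusted p of 0.05 in edgeR's quasi-likelihood test over 15097 genes. Among all genes tested, 39.4% were called lower and 42.7% higher. The members' median log2 change, day 10 over day 0, was -0.99, against 0.06 for all genes tested. Tested against a 2-fold change, 26 members were lower and 2 higher, beside 17.3% of all genes lower and 24.1% higher. In 48 members every day 10 library lay below every day 0 library (37.2% of all genes), in 7 every day 10 library lay above (40.8% of all genes), and in 8 the days overlapped. The 7 that rose were Eif4g3, Eef2k, Eif1b, Eif3j1, Eif2ak2, Eif4e3 and Eif5a2. The 5 not called were Eif2s3y, Eif2ak1, Eif2ak3, Eif2ak4 and Eef1akmt2.

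**Figure D1:**
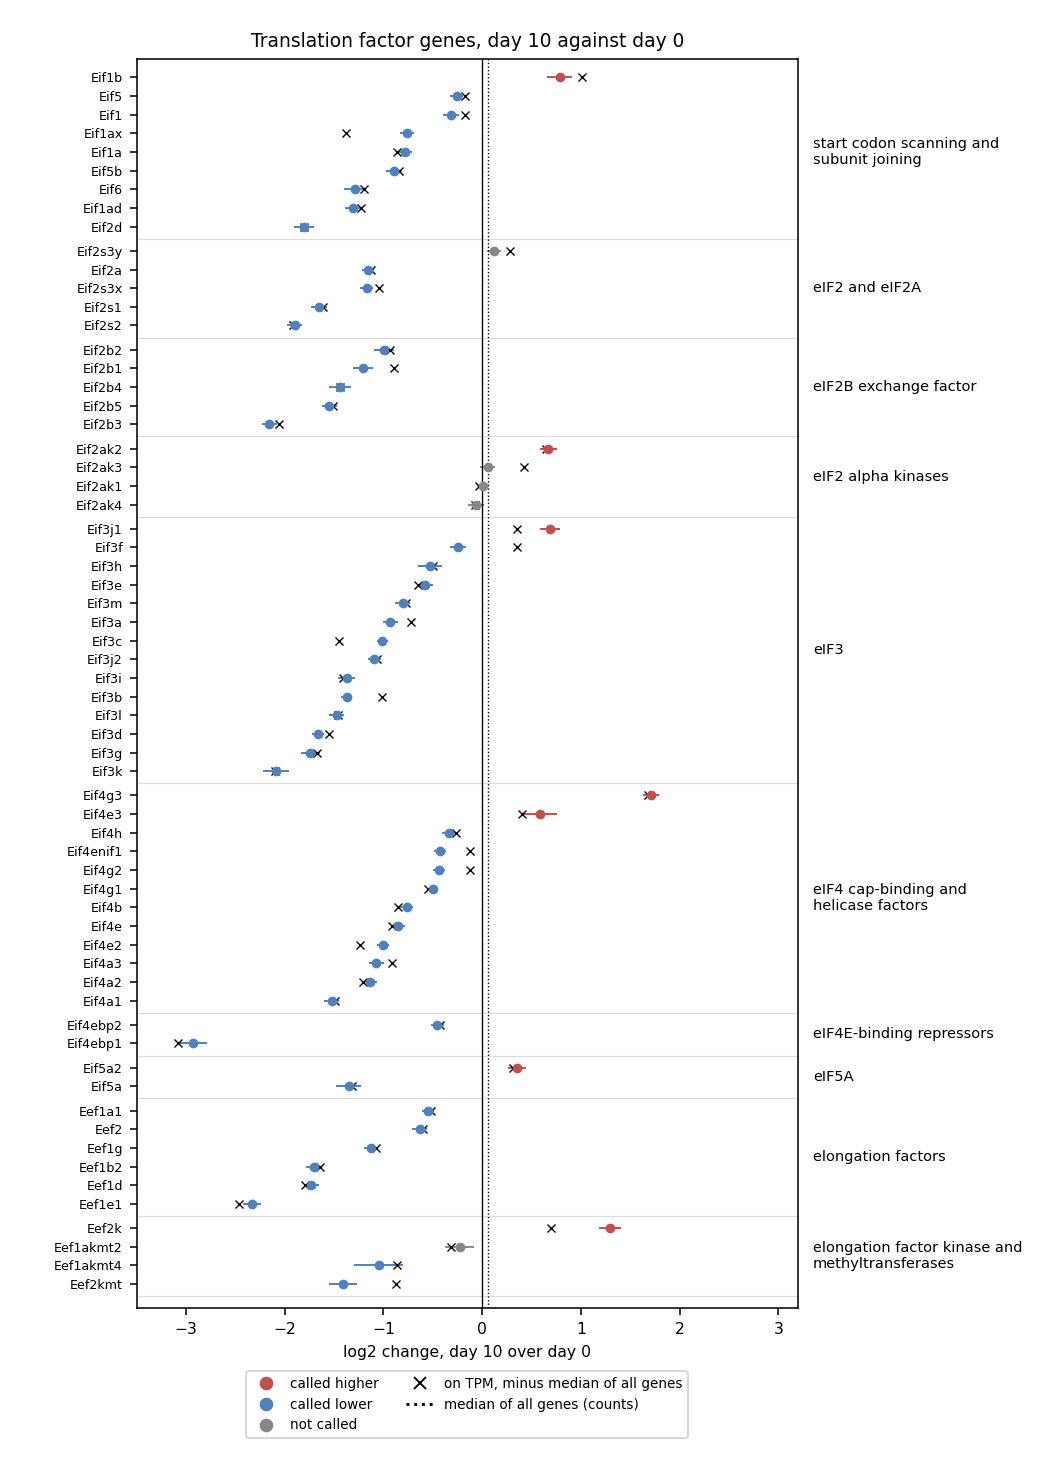
Log2 change (day 10 over day 0, horizontal axis) of the 63 tested translation factor genes, by role. Points with bars are the count fit ± SE, crosses the change on TPM minus the median of all genes, and the dotted line the median of all genes on counts, 0.06. Most points lie left of 0, and the 7 red points to its right are the members called higher.

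The direction of the set held on TPM, an abundance scale corrected for effective transcript length, while the whole scale shifted upward. On log2(TPM + 1) the median of all genes moved to 0.40 and that of the members to -0.49. Set against the all-gene median, the members' median was -0.89 on log2(TPM + 1) and -1.05 on counts. With no correction for that shift, 40 members were lower and 14 higher, beside 27.1% and 52.1% of all genes. The members past the 2-fold test numbered 12 on that scale, against 28 on counts. No share of all genes past 2-fold is given on TPM, so this drop cannot be set against that of all genes. Of all genes called on that scale 65.8% were higher, against 52.0% on counts. The members are short, with a median transcript length of 1752 nucleotides against 2326 over all genes tested, and longer genes had higher log2 changes. Spearman's rho between length and change was 0.33 across the 63 members and 0.30 across 15097 genes, which share the same 8 libraries. With that trend over length removed, 50 members were lower and 8 higher, beside 40.31% and 40.33% of all genes. Summed over all members, the level was 21630 to 22850 TPM per day 10 library and 29760 to 30740 TPM per day 0 library.

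**Figure D2:**
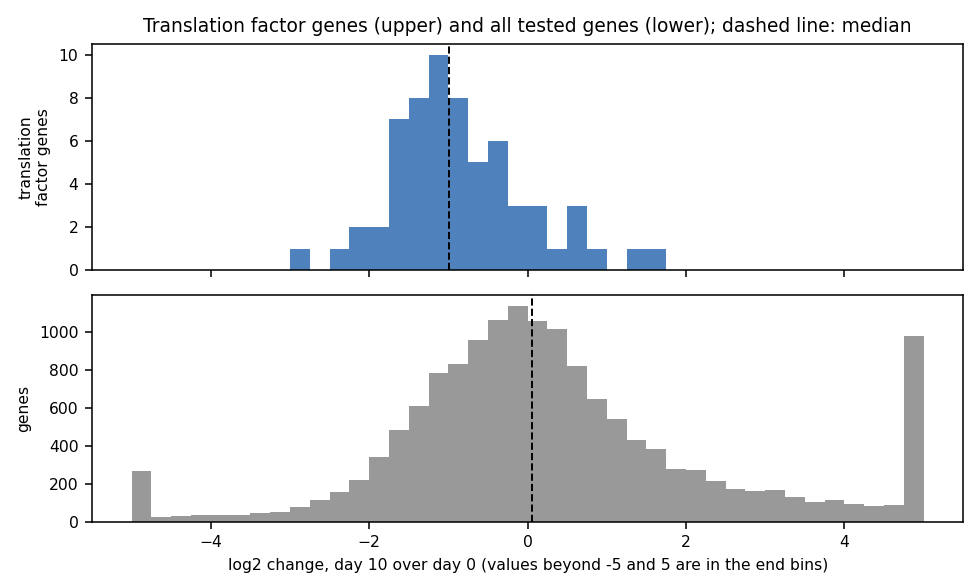
Number of genes (vertical axes) by log2 change, day 10 over day 0 (horizontal axis), for 63 translation factor genes above and 15097 tested genes below. The dashed medians stand at -0.99 for the translation factor genes and at 0.06 for all genes.

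Promoter windows from RefSeq (GRCm38.p6, 250 bases before to 50 after the annotated start) were found for 52 of the 68 members. The letters CACGTG, the E-box bound by MYC and related factors, stood in a window of 13 of these 52 (25%), against 11.6% of 11317 tested genes with a window. The motif is its own reverse complement. Of the members with a window it was found in 10 of 40 called lower and in 3 of 6 called higher. The letters CCGGAAGT or their reverse complement ACTTCCGG, a core site of ETS family factors, stood in 9 of 52 (17.3%), against 8.36% of the tested genes. Neither motif contains the other. A match is only a description of the letters in the window. The stretches below are the 100 bases before a start, 5′ to 3′ on the gene's strand, with the E-box in capitals, and are shown because they put the same letters beside members that fell and members that rose.
Eef2 (chr10:81176531-81176630, plus strand, fell): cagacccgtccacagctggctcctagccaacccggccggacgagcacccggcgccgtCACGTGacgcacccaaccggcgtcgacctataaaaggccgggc
Eif4g1 (chr16:20672627-20672726, plus strand, fell): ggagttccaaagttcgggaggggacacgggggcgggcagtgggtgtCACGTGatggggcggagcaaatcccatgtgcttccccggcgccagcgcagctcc
Eif4e (chr3:138527168-138527267, plus strand, fell): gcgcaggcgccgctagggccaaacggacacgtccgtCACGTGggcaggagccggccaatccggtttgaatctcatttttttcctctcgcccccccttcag
Eif3k (chr7:28981889-28981988, minus strand, fell): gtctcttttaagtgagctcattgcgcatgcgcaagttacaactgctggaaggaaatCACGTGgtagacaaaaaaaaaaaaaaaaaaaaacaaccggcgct
Eef2k (chr7:120842731-120842830, plus strand, rose): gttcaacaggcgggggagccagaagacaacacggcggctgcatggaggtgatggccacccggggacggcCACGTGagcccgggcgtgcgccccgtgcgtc
Eif1b (chr9:120492506-120492605, plus strand, rose): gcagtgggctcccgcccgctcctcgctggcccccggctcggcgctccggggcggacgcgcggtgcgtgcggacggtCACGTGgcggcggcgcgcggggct
Relative to the start, the E-box began at position -24 in Eif1b, -31 in Eef2k, -43 in Eef2, -44 in Eif3k, -54 in Eif4g1 and -64 in Eif4e. Eef2k and Eif4e have further annotated starts whose stretches hold neither motif.

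Among the factors of start codon scanning and subunit joining, 8 of 9 fell and 1 rose, with a median log2 change of -0.78, although Eif1 and Eif5 turned positive on TPM (0.22 and 0.23, both below the 0.40 median of all genes). Eif1b, a close paralogue of the start-codon fidelity factor eIF1, had 44.5, 42.2, 41.6 and 39.2 CPM at day 10, against 23.6, 17.7, 28.9 and 26.97 CPM at day 0. All day 10 libraries were higher, and the log2 change was 0.79 ± 0.13 (SE) with an edgeR adjusted p of 5.48e-05. Eif1 itself had 159, 159, 165 and 154 CPM at day 10, against 161, 209, 213 and 206 CPM at day 0. Library 1 of day 0 lay within the day 10 range, the other day 0 libraries above it, and the log2 change was -0.31 ± 0.081 (SE). With the length trend removed the Eif1 change was 0.49, above 0. Eif1a had 157, 142.1, 162 and 161 CPM at day 10, against 270, 281, 252 and 261 CPM at day 0. Its X-linked paralogue Eif1ax had 95.2, 97.5, 90.6 and 96.2 CPM at day 10, against 153, 146, 176 and 167 CPM at day 0. Both encode eIF1A and fell without overlap, by 0.78 and 0.76 on the log2 scale. Eif2d, which can deliver initiator tRNA without GTP, fell by 1.80. Eif1ad, an eIF1A domain protein, fell by 1.31, and Eif6, which keeps ribosomal subunits apart, by 1.29. Eif5b, the GTPase of subunit joining, fell by 0.89, but by 0.22 and without passing the test (edgeR adjusted p = 0.158) when only its protein-coding transcripts were summed. Eif5, the GTPase activator of eIF2, fell by 0.26.

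The eIF2 genes fell with a single exception. Eif2s2, the beta subunit, had 158, 180, 174 and 172 CPM at day 10, against 596, 712, 639 and 603 CPM at day 0. No library of day 10 came near the day 0 libraries, and the log2 change was -1.90 ± 0.072 (SE, edgeR adjusted p = 1.29e-11). Eif2s1, the alpha subunit that stress kinases phosphorylate, fell by 1.65, and Eif2a, which encodes the unrelated eIF2A, by 1.16. The gamma subunit comes from an X-linked and a Y-linked gene, closely similar in sequence, so reads can be shared between them and each is uncertain alone. Eif2s3x had 237, 274, 270.2 and 246 CPM at day 10, against 558, 588, 581 and 587 CPM at day 0. Eif2s3y had 101, 116, 121.8 and 105 CPM at day 10, against 96.96, 102, 108 and 100.5 CPM at day 0. The X-linked gene fell by 1.17, while the Y-linked gene overlapped between days, with a log2 change of 0.12 ± 0.071 (SE) and an edgeR adjusted p of 0.12. The Eif2s3y change was 0.68 on TPM and -0.36 when only protein-coding transcripts were summed, each past the threshold, so its direction depends on the transcripts counted.

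All 5 subunits of eIF2B, the exchange factor that reloads eIF2 with GTP, fell, with log2 changes from -2.15 to -0.99 and 4 of them past the 2-fold test. Eif2b3, the gamma subunit, had 19.5, 16.4, 18.9 and 18.6 CPM at day 10, against 77.3, 80.5, 83.1 and 85.4 CPM at day 0. Its log2 change was -2.15 ± 0.080 (SE, edgeR adjusted p = 1.06e-11), and the days stood far apart. Eif2b5, the catalytic epsilon subunit, fell by 1.55, Eif2b4 by 1.44, Eif2b1 by 1.21 and Eif2b2 by 0.99. The median of the 5 was -1.44 on counts and -1.04 on TPM.

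Of the 4 kinases that phosphorylate eIF2 alpha, 1 rose and none was called lower on counts. Eif2ak2, known as PKR and activated by double-stranded RNA, had 94.6, 76.99, 99.04 and 85.2 CPM at day 10, against 55.9, 59.97, 57.1 and 50.3 CPM at day 0. All day 10 libraries lay above day 0, with a log2 change of 0.67 ± 0.088 (SE, edgeR adjusted p = 6.28e-06). Eif2ak1 (haem-regulated), Eif2ak3 (the endoplasmic reticulum kinase PERK) and Eif2ak4 (the amino acid sensor GCN2) had log2 changes of 0.011, 0.057 and -0.060, and their days overlapped. On TPM these were 0.37, 0.82 and 0.33, each past the threshold, so that Eif2ak4 changes sign. Relative to the median of all genes on TPM, Eif2ak3 was 0.43 higher, and Eif2ak1 and Eif2ak4 were 0.029 and 0.069 lower. With the length trend removed, Eif2ak1 and Eif2ak4 were lower, at -0.51 and -0.66. The mean transcript lengths of Eif2ak1 and Eif2ak4 are 3940 and 4319 nucleotides, and their calls depend on how length is handled.

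In eIF3, the scaffold that holds the small subunit, 13 of 14 genes were lower and 1 was higher, with a median of -1.05, and Eif3f turned positive on TPM (0.75) and with an effective-length offset (0.35). The falls differed between subunits. Eif3k had 31.4, 25.6, 24.8 and 30.8 CPM at day 10, against 134, 90.7, 135 and 119.5 CPM at day 0. On counts it fell the most of the complex, with a log2 change of -2.09 ± 0.13 (SE, edgeR adjusted p = 2.18e-08). With the length trend removed, Eif3k was at -1.35, and Eif3a, the longest of these genes, had the largest fall, -1.57. Eif3l, the subunit that Eif3k pairs with, fell by 1.47 on counts. The core subunits Eif3a, Eif3b and Eif3c fell by 0.93, 1.37 and 1.01, and Eif3g and Eif3i, which join them on the mRNA entry side, by 1.74 and 1.37. Eif3d, the subunit with its own cap-binding pocket, fell by 1.66. Eif3m fell by 0.80. Eif3e, Eif3h and Eif3f had the smallest falls, of 0.58, 0.52 and 0.24, and the days overlapped in Eif3h and Eif3f. Eif3h no longer passed on TPM or with the length trend removed, at a limma adjusted p of 0.409 and an edgeR adjusted p of 0.375. Eif3j is encoded by a pair of closely similar genes, so the same holds for them as for the eIF2 gamma genes. Eif3j1 had 32.01, 29.9, 31.3 and 32.96 CPM at day 10, against 17.5, 17.4, 21.1 and 22.2 CPM at day 0. Eif3j2 had 92.9, 87.1, 108 and 98.9 CPM at day 10, against 205, 202, 208 and 208 CPM at day 0. Eif3j1 was higher, with a log2 change of 0.69 ± 0.10 (SE), which falls to 0.16 and misses the threshold with the length trend removed, and Eif3j2 was lower by 1.09.

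Most eIF4 genes fell, and Eif4g3 and Eif4e3 rose. Of 12 tested, 10 were lower and 2 higher, and the median was -0.63, while Eif4g2, Eif4h and Eif4enif1 turned positive on TPM (0.27, 0.13 and 0.28, each below the 0.40 median of all genes). Eif4a1, the main cap-unwinding helicase, had 841, 838, 849.6 and 886 CPM at day 10, against 2177, 2235, 2705 and 2700 CPM at day 0. Its log2 change was -1.52 ± 0.080 (SE), the lowest of the eIF4 genes. Eif4a2, its close paralogue, had 395, 414, 448 and 484 CPM at day 10, against 915, 978, 976 and 965 CPM at day 0, a change of -1.14 ± 0.069 (SE). Eif4a3, which serves the exon junction complex, fell by 1.07. Eif4b and Eif4h, which stimulate the helicase, fell by 0.76 and 0.33.

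The scaffold family eIF4G moved in both directions. Eif4g1, which bridges cap-binding protein and eIF3, had 676, 618, 612 and 639 CPM at day 10, against 898, 930.1, 903 and 869 CPM at day 0. Eif4g2, a relative without the cap-binding-protein site, had 1255, 1171, 1276 and 1262 CPM at day 10, against 1628, 1797, 1642 and 1655 CPM at day 0. Both lay below day 0 in every library, by 0.50 and 0.44 on the log2 scale. On TPM the Eif4g1 change was -0.16 and missed the threshold (limma adjusted p = 0.179). Set against the all-gene median on that scale it was -0.55. Relative to that median Eif4g2 was -0.12. Eif4g3 had 199.5, 177, 181 and 178 CPM at day 10, against 60, 61.4, 54.9 and 47.98 CPM at day 0. It rose the most of all members, with a log2 change of 1.71 ± 0.082 (SE, edgeR adjusted p = 1.28e-10) and a lowest value over the scalings of 1.05, with the length trend removed.

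Among the cap-binding proteins, Eif4e had 184, 199, 185 and 187 CPM at day 10, against 309, 331, 345 and 377 CPM at day 0. Eif4e2, which binds caps in a repressing complex, had 73.2, 68.8, 69.6 and 65.8 CPM at day 10, against 139, 140, 143.6 and 134 CPM at day 0. Eif4e fell by 0.85 and Eif4e2 fell by 1.004, and neither overlapped between days. Eif4e3 was scarce, with 5.37, 6.98, 7.16 and 6.95 CPM at day 10, against 4.05, 5.08, 4.80 and 3.73 CPM at day 0. It rose by 0.58 ± 0.18 (SE) on the log2 scale (edgeR adjusted p = 0.00798). Eif4enif1, the eIF4E transporter, fell by 0.43, and its fall missed the threshold with an effective-length offset. Eif4e1b, an oocyte form, had 0 counts over the day 10 libraries and 1 over the day 0 libraries, and was not tested.

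Of the eIF4E-binding proteins, which block eIF4E until mTORC1 phosphorylates them, Eif4ebp1 had 9.35, 9.94, 8.11 and 6.73 CPM at day 10, against 63.04, 50.8, 77.97 and 68.2 CPM at day 0. This was the largest fall of all members, -2.93 ± 0.15 (SE) on the log2 scale (edgeR adjusted p = 1.02e-09). Eif4ebp2 had 100, 109.5, 102 and 89.5 CPM at day 10, against 140.8, 142.5, 133 and 132 CPM at day 0. It fell by 0.45, while on TPM its change was -0.025 and not past the threshold (limma adjusted p = 0.825). Relative to the median of all genes on TPM it was -0.42. Eif4ebp3 had too few reads to test, 13 counts over the 4 day 10 libraries and 16 over the 4 day 0 libraries.

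For eIF5A, the hypusine-carrying factor that eases stalled peptide bonds, Eif5a had 165, 174, 166 and 142.6 CPM at day 10, against 422, 307, 476 and 448 CPM at day 0. Its paralogue Eif5a2 had 30.7, 30.3, 30.8 and 29.4 CPM at day 10, against 23.1, 24.3, 25.7 and 21.8 CPM at day 0. Eif5a fell with a log2 change of -1.35 ± 0.12 (SE). Eif5a2 rose by 0.35 ± 0.087 (SE, edgeR adjusted p = 0.00174), and this turned to -0.33 with the length trend removed.

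All 6 tested elongation factor genes fell, with a median log2 change of -1.41 on counts and -0.96 on TPM. Eef1a1, which encodes eEF1A1, had 3772, 3915, 3637 and 3608 CPM at day 10, against 5084, 5572, 5613 and 5581 CPM at day 0. Eef2, the translocase, had 1286, 1349, 1114 and 1072 CPM at day 10, against 1802, 1799, 1905 and 1963 CPM at day 0. Their falls were the smallest of the group, -0.55 ± 0.061 (SE) for Eef1a1 and -0.63 ± 0.078 (SE) for Eef2, and on TPM they were -0.12 and -0.20 and missed the threshold (limma adjusted p = 0.150 and 0.0738). Set against the all-gene median on TPM, Eef1a1 was -0.52 and Eef2 -0.60. With the length trend removed, the Eef1a1 change was -0.062 and the Eef2 change -0.86. The subunits of the exchange factor eEF1B fell further on counts and on TPM. Without the length trend, Eef1b2, Eef1d and Eef1g were at -0.95, -0.99 and -0.99, close to Eef2. Eef1b2 had 384, 372, 440.2 and 472 CPM at day 10, against 1377, 1305, 1419 and 1323 CPM at day 0. Eef1d had 73.4, 65.2, 72.2 and 72.02 CPM at day 10, against 265, 206, 242 and 224 CPM at day 0. Eef1g had 701, 653, 606 and 595 CPM at day 10, against 1346, 1267, 1469 and 1489 CPM at day 0. Their days stood apart in every library, with log2 changes of -1.70 ± 0.079 (SE) for Eef1b2, -1.73 ± 0.080 (SE) for Eef1d and -1.12 ± 0.074 (SE) for Eef1g. Eef1e1, a member of the multi-synthetase complex also known as AIMP3, had 14.1, 15.1, 15.1 and 15.5 CPM at day 10, against 71.5, 69.6, 86.7 and 74.1 CPM at day 0. Its log2 change of -2.33 ± 0.090 (SE, edgeR adjusted p = 1.58e-11) was exceeded among the members only by that of Eif4ebp1.

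Levels per length placed Eef1a1 first among the members on both days, at 8297 ± 378 TPM at day 10 and 9018 ± 413 TPM at day 0 (SD, n = 4 each). It held 36.6% to 38.6% of the members' summed TPM at day 10 and 28.7% to 31.0% at day 0. Eef1b2 followed at 1504 ± 192 TPM at day 10 and 3539 ± 168 TPM at day 0 (SD, n = 4 each). Eef2 stood at 875 ± 120.1 TPM at day 10 and 999.5 ± 15.2 TPM at day 0 (SD, n = 4 each). Eef1g stood at 815 ± 64.1 TPM at day 10 and 1299 ± 44.6 TPM at day 0 (SD, n = 4 each). At day 10 Eef2 and Eef1g overlapped in level, while at day 0 Eef1g was higher in every library. Eef1d reached 232 ± 7.90 TPM at day 10 and 614 ± 74.9 TPM at day 0 (SD, n = 4 each). Eef1e1 reached 17.2 ± 1.68 TPM at day 10 and 74.97 ± 4.12 TPM at day 0 (SD, n = 4 each), the lowest of the 6 tested elongation factor genes on both days, a group that leaves out the kinase and methyltransferases. Much of the Eef1a1 TPM rests on a short processed transcript of 505 nucleotides, Eef1a1-204, with 47.7% of it at day 10 and 37.6% at day 0, and another short form, Eef1a1-208, had 2.93% at day 10 and 15.6% at day 0. The full-length Eef1a1-201 had 3599 ± 280 TPM at day 10 and 3893 ± 281 TPM at day 0 (SD, n = 4 each). Eef1a2, the muscle and neuron form of eEF1A, was below 1 TPM in every library, with 0.697, 0.891, 0.699 and 0.707 TPM at day 10 and 0.603, 0.409, 0.325 and 0.458 TPM at day 0. These values come from 43 counts over the day 10 libraries and 29 over the day 0 libraries, too few for the gene test.

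**Figure D3:**
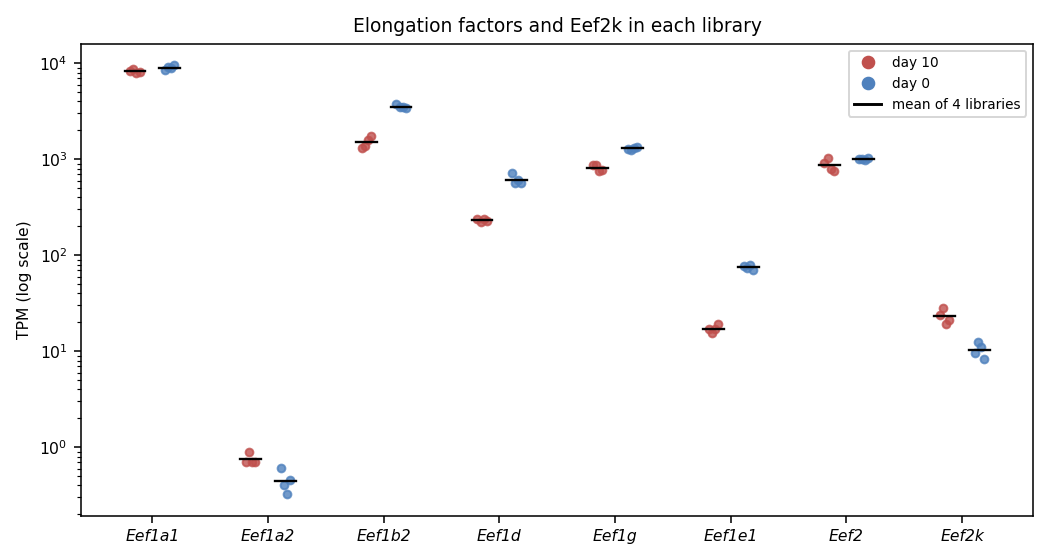
TPM (log axis) of 7 elongation factor genes and Eef2k in each of the 4 day 10 and 4 day 0 libraries, with the mean as a bar. Eef1b2, Eef1d, Eef1g and Eef1e1 were lower at day 10 in every library, Eef2k was higher, and Eef1a2 lay below 1 TPM on both days.

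Eef2k, the calcium-dependent kinase that phosphorylates and blocks eEF2, rose, while Eef2 fell on counts. On TPM the fall of Eef2, -0.20, missed the threshold (limma adjusted p = 0.0738) but lay below the 0.40 median of all genes. Eef2k had 32.5, 30.9, 29 and 25.8 CPM at day 10, against 11.7, 11.3, 13.98 and 11.1 CPM at day 0. The log2 change was 1.30 ± 0.11 (SE, edgeR adjusted p = 8.80e-08), with no overlap between days. Eef2kmt, which methylates eEF2, fell by 1.41, and Eef1akmt4, a lysine methyltransferase of eEF1A, by 1.05. Eef1akmt2 had a log2 change of -0.23 that was not called and turned to 0.44 with the length trend removed. Eef1akmt1 and Eef1akmt3 were too low to test, at 1 and 33 counts over the day 10 libraries and 5 and 34 over the day 0 libraries.

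The balance between paralogues was compared as the share of a pair's summed TPM held by the named gene, in 13 pairs, with a two-sided exact permutation test over 70 assignments of the libraries. The smallest p this allows is 0.0286, which became 0.0413 after Benjamini-Hochberg adjustment over the 13 pairs. In 9 pairs the days did not overlap and the test gave that value. Some pairs share a partner, so they are not independent. Eif4ebp2 held 70, 72.9, 74.03 and 74.7% at day 10, against 29.4, 34.7, 24.8 and 26.3% at day 0, of its pair with Eif4ebp1. Eif2s3y held 47.1, 43.4, 46.4 and 41.01% at day 10, against 24.8, 25.1, 24.1 and 22.7% at day 0, of its pair with Eif2s3x. Eif4g3 held 16.3, 19.98, 19.7 and 15.8% at day 10, against 4.21, 5.08, 4.64 and 3.28% at day 0, of its pair with Eif4g1. In these 3 pairs the share of the first gene was higher in every day 10 library, and Eif4ebp2 was the more abundant of its pair at day 10, Eif4ebp1 at day 0. Eif1b held 23.4, 21.6, 20.04 and 19.4% at day 10, against 14.3, 7.13, 10.9 and 10.4% at day 0, of its pair with Eif1. Eif5a2 held 4.24, 3.96, 4.22 and 4.68% at day 10, against 1.29, 1.79, 1.26 and 1.14% at day 0, of its pair with Eif5a. Eif4e3 held 1.60, 1.84, 2.05 and 2.13% at day 10, against 0.676, 0.819, 0.693 and 0.507% at day 0, of its pair with Eif4e. These 3 shares also rose, while the minor paralogue remained the minor one. Eif3j2 held 84.5, 85.6, 85.2 and 85.01% at day 10, against 95.2, 93.95, 93.2 and 93.8% at day 0, of its pair with Eif3j1, a lower share at day 10.

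In the remaining pairs the days overlapped, or the test changed side in an alternative. Eif4a2 held 37.6, 37.8, 40.8 and 41.5% at day 10, against 35.6, 37.4, 33.4 and 33.1% at day 0, of its pair with Eif4a1, a rise of 4.54 points. With only protein-coding transcripts summed this was -0.46 points (exact permutation p = 0.657). Over all transcripts the difference was 3.85 to 5.14 points when any 1 of the day 10 libraries, or day 0 library 3 or 4, was left out, and the exact permutation p was then 0.0571, 1 step above the smallest that 4 against 3 libraries allow (0.0286). The share of Eef1a2 was 0.00900% ± 0.00080 at day 10 and 0.00500% ± 0.00145 at day 0 (SD, n = 4 each). Without any 1 of the day 10 libraries the difference was 0.00362 to 0.00424 points, against 0.0040 with all, and the exact permutation p was 0.0571. Eif1ax held 44.5, 32, 34.9 and 35.7% at day 10, against 40.8, 37.9, 53.6 and 50% at day 0, of its pair with Eif1a (exact permutation p = 0.143). Eif4g2 held 72.3, 79.1, 78.3 and 77.1% at day 10, against 67.7, 72.6, 71.7 and 72.04% at day 0, of its pair with Eif4g1. Eif4e2 held 28.5, 23.6, 26.3 and 25.6% at day 10, against 32.1, 32.7, 29.8 and 27.7% at day 0, of its pair with Eif4e. The exact permutation p was 0.0571 for both Eif4g2 and Eif4e2. In the pairs of Eif1ax, Eif4g2 and Eif4e2 the days overlapped. Without day 10 library 1 the difference for Eif4g2 was 7.15 points and passed the threshold (exact permutation p = 0.0286). The share of Eif4ebp3 in its pair with Eif4ebp1 rested on libraries with few or no reads and had an exact permutation p of 0.429.

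**Figure D4:**
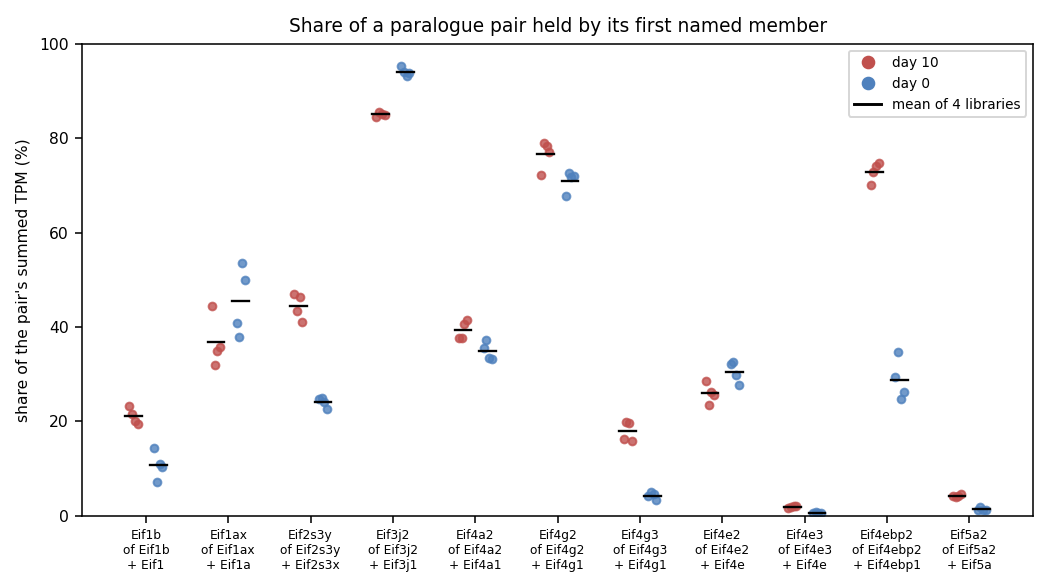
Share (%) of the summed TPM of a pair held by the named gene in each of the 4 day 10 and 4 day 0 libraries, for 11 of the 13 pairs, with the mean as a bar. The pairs of Eef1a2 and Eif4ebp3, genes too low to test, are not drawn. The widest gap between days is that of Eif4ebp2, at 72.9% for day 10 and 28.8% for day 0.

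At the level of single transcripts, 4 of the 41 members with at least 2 tested transcripts of 10% or more of the gene's TPM had transcripts called in opposite directions. Over protein-coding genes the share was 6.63% of 8358. Without day 0 library 4 the count was 8, and with a minimum of 5% in place of 10% it was also 8. In Eif1a, the transcript Eif1a-202 had 0, 0.0049, 0 and 0 TPM at day 10, against 53.8, 63.9, 25.9 and 39.2 TPM at day 0. Eif1a-205 had 28.6, 18.4, 27.96 and 34.7 TPM at day 10, against 9.11, 11.5, 9.74 and 7.73 TPM at day 0. The first was nearly absent from all day 10 libraries and the second was higher in each of them. The main form, Eif1a-201, stood at 75.4 ± 3.79 TPM at day 10 and at 90.9 ± 4.95 TPM at day 0 (SD, n = 4 each).

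Eif5 changed its leading transcript. Eif5-201 had 23.4, 19.9, 1.15 and 8.86 TPM at day 10, against 90.3, 106, 76.8 and 86.9 TPM at day 0. Eif5-212, also protein-coding, had 63.1, 83.9, 79.8 and 81.8 TPM at day 10, against 36.8, 32.3, 34.5 and 35.2 TPM at day 0. The shares of the gene's TPM were 4.81% and 27.8% at day 10, against 37.8% and 14.6% at day 0. Eif5-204 and Eif5-208, which retain introns, also rose, with log2 changes of 0.68 and 1.76. In Eif3a the retained-intron transcript Eif3a-202 had 43.6 ± 7.91 TPM at day 10 and 13.7 ± 2.44 TPM at day 0, while the full Eif3a-201 had 190 ± 12.9 TPM at day 10 and 295 ± 34.9 TPM at day 0 (SD, n = 4 each). In Eif2b2 the short Eif2b2-205 rose to 5.58 ± 2.02 TPM at day 10, against 0.401 ± 0.803 TPM at day 0 (SD, n = 4 each), and it rests on 97 counts at day 10 and 9 at day 0. In Eef1d, the 4 transcripts with at least 10% of the gene's TPM all fell, with log2 changes from -2.11 to -1.77. Kallisto assigns reads shared by overlapping transcripts by a model, so these values are estimates.

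**Figure D5:**
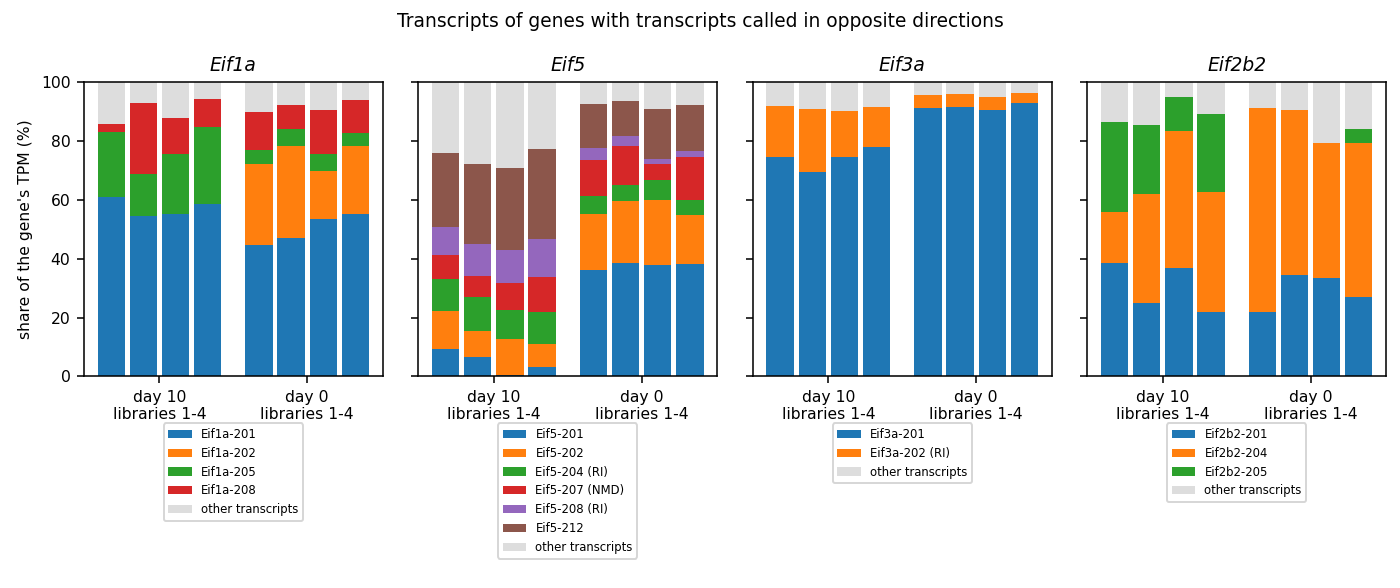
Share (%) of the TPM of Eif1a, Eif5, Eif3a and Eif2b2 held by each named transcript in the 4 day 10 and 4 day 0 libraries (RI, retained intron; NMD, nonsense-mediated decay). Eif1a-202 is nearly absent at day 10, and at day 10 the share of Eif5-201 is lower and those of Eif5-212 and the retained-intron forms are higher.

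Retained-intron transcripts held 10.4% to 11.4% of the members' summed TPM at day 10 and 6.85% to 7.53% at day 0. Over all protein-coding genes the range was 13.9% to 15.3% at day 10 and 11.01% to 11.5% at day 0, again higher in every day 10 library. Of 82 tested retained-intron transcripts of members, 15 were higher and 23 lower, beside 27.9% higher and 14.4% lower over protein-coding genes. Their median log2 change was -0.16, against -0.81 for the 155 protein-coding transcripts of members. Over protein-coding genes the medians stood in the same order, at 0.28 for retained-intron and -0.049 for protein-coding transcripts.

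Genes that work beside the factors were counted from lists of the pathway. Of all genes tested, 39.4% were lower and 42.7% higher on counts, and 27.1% lower and 52.1% higher on TPM. The list of cytosolic aminoacyl-tRNA synthetases, which charge the tRNAs that eEF1A delivers, also holds Aimp1 and Aimp2, scaffold proteins of the multi-synthetase complex. All 22 of its genes fell on counts, 19 of them past 2-fold, with a median of -1.42. On TPM, Qars turned to 0.13, below the 0.40 median of all genes. Aars had 88.7 ± 4.62 CPM at day 10 and 303 ± 15.3 CPM at day 0 (SD, n = 4 each). Kars had 73.3 ± 4.10 CPM at day 10 and 233 ± 11.7 CPM at day 0, and Farsb had 18.8 ± 1.80 CPM at day 10 and 75.0 ± 2.83 CPM at day 0 (SD, n = 4 each). The list of hypusine and diphthamide synthesis, which modify eIF5A and eEF2, also holds the polyamine synthesis genes Odc1, Srm and Sms. Of its 12 genes, 10 fell and none rose on counts, with a median of -1.14. Odc1, the first enzyme of polyamine synthesis, fell by 2.15. Dhps, which starts hypusine, fell by 1.90, and Srm, the spermidine synthase, fell by 1.63.

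Of 9 release, recycling and reinitiation genes 8 fell, and 5 on TPM, with a median of -0.94 on counts. Abce1, which splits ribosomes after termination, fell by 1.56. Etf1, which reads stop codons, fell by 1.22, and its partner Gspt1 fell by 0.94. Of 9 tested poly(A)-binding proteins and partners, 7 fell and 2 rose. Pabpc4, Pabpc1 and the TOP mRNA binder Larp1 fell by 1.37, 1.01 and 0.90, and Pabpc4l rose to 26.8 ± 3.30 CPM at day 10, against 6.81 ± 1.06 CPM at day 0 (SD, n = 4 each). A list of helicases outside the eIF4 family, which also holds the ABC-type ATPase Abcf1, had 4 of 6 genes lower and 2 higher on counts. On TPM 2 were lower, beside 27.1% of all genes, and the median of the list was 0.24. Abcf1 fell by 1.52, and the helicases Dhx29 and Ddx3x fell by 1.40 and 0.35. Ddx6 rose by 0.41, while Ddx3x turned to 0.15 on TPM, below the 0.40 median of all genes, and Ddx6 to -0.35 with the length trend removed.

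The list of eIF4E kinases and mTORC1 pathway genes was the exception, with 10 of 14 higher, 4 lower and a median of 0.28. Pdcd4, which inhibits the eIF4A helicase, had 75.7 ± 7.47 CPM at day 10 and 30.0 ± 2.70 CPM at day 0 (SD, n = 4 each). Mknk2, a kinase of eIF4E, rose by 0.75. Tsc1, a brake on mTORC1, rose by 0.74, but by 0.039 and without passing the test when the length trend was removed. Deptor, an inhibitory mTOR partner, fell by 2.58. Among integrated stress response targets and phosphatase subunits, 7 of 12 fell and 4 rose, beside 39.4% and 42.7% of all genes. Among those that fell, the log2 changes were -2.96 for Trib3, -1.22 for Sesn2 and -0.85 for Atf4, the transcription factor of this response. The 4 that rose were Ddit3, Vldlr and Atf5, with log2 changes of 1.835, 1.5 and 0.66, and Ppp1r15a. Ppp1r15a, the inducible subunit that removes phosphate from eIF2 alpha, rose to 142.1 ± 10.47 CPM at day 10, against 41.8 ± 1.55 CPM at day 0 (SD, n = 4 each).

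Genes whose mRNAs are known to begin with a terminal oligopyrimidine (TOP) tract, which places their translation under mTORC1, fell in 10 of 10, and in 6 of 10 on TPM. Their median was -0.70 on counts, against -1.01 for the 54 tested members outside that list, and -0.35 against -0.52 on TPM. With the length trend removed, the 10 lay between -1.16 (Eif4b) and -0.0069 (Eif3f). These values stood on both sides of the median of all members, -0.89, so whether the list fell less depends on how length is handled. These 10 are Eef1a1, Eef1b2, Eef1d, Eef1g, Eef2, Eif3e, Eif3f, Eif3h, Eif4b and Pabpc1, and they include the smallest falls of the elongation factors (Eef1a1 and Eef2) and of eIF3 (Eif3e, Eif3h and Eif3f) beside the larger ones of Eef1b2 and Eef1d. In the RefSeq windows a C followed by at least 4 pyrimidines began within the first 10 bases of 1 of the 5 with a window, of 23.4% of 47 other members and of 21% of 11317 tested genes.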

How the data were processed

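Per the labels, total RNA of 8 libraries, 4 at day 10 and 4 at day 0, was sequenced after ribosomal RNA depletion. The estimated counts and TPM values per transcript were deposited by the authors in 1 table per library, which per the file headers also gives length and effective length. Quantification used kallisto, given as version 1 in the submitters' processing notes, which also name DESeq2. Which transcript reference and build they used is not given in the sources used here. No deposited column belonged to another sample.

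Transcripts were joined without version to GENCODE M21 (117992 of 126126, 93.6%), and estimated counts and TPM were summed per gene, the counts then rounded. Kallisto shares reads between paralogues and overlapping or antisense transcripts, so each close copy is uncertain alone. All genes were tested with edgeR 4.0.16 in R 4.3.3 (filterByExpr, TMM, robust quasi-likelihood fit, Benjamini-Hochberg over 15097 genes, threshold 0.05), and 2-fold changes with glmTreat. CPM is scaled by TMM, and SE is that of the log2 change. The common biological coefficient of variation was 12.5%. Total counts were 11242568 to 17843651 per library, and counting error weighs most in low members such as Eef1akmt4 (22 to 95 counts per library) and the 5 too low to test. Alternatives were DESeq2 1.42.0, other scalings and filters, limma 3.58.1 on log2(TPM + 1) and log2(TPM + 0.1), length offsets, a loess trend on length, a replicate block, leaving out each library and, chosen after seeing the data, protein-coding transcripts alone. The fits were also run on simulated data, with the same dispersion for all genes, few changed genes and no length trend. Such data cannot show how the fits behave where most genes change or where length matters.

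Values per library are given for paralogues of at least 1 TPM, elongation factors and the 5 highest and 5 lowest called members of at least 5 CPM. Of each pathway list, up to 3 called genes in its main direction and 1 in the other are named. Other members are named by role, and the 6 promoter stretches were picked among members whose E-box lies in the 100 bases before a start. The transcripts of Eef1a1, and genes outside this rule whose change turned sign, were described after their values were seen. So were further called genes of the stress response list. The members and lists were chosen with earlier results of these data known.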

Additional observations from a re-analysis of the deposited data

Results flagged for a closer look

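In 13 of 126 groups of 4 libraries of the tested members, 1 library stood apart from the other 3, where chance gives about 1 in 20 groups. These groups come from the same libraries and are not independent. No share over all genes is given, so the number cannot be read as particular to the members. At day 10, library 1 was high in Eif4g3 (199.5 CPM, against 177 to 181) and low in Eif4e3 (5.37 CPM, against 6.95 to 7.16). Library 2 of day 10 was high in Eif2ak3 (53.8 CPM, against 48.0 to 48.9) and low in Eef1d (65.2 CPM, against 72.0 to 73.4). The other 9 were at day 0. In library 2 of day 0, Eif2b5 (215.8 CPM, against 186.5 to 189.9 in the others) and Eif4g2 (1797 CPM, against 1628 to 1655) were high. Eif6 (52.4 CPM, against 71.9 to 75.3), Eif2b4 (24.2 CPM, against 30.6 to 31.2) and Eif3l (326 CPM, against 381 to 389) were low there. In library 1 of day 0, 4 genes were low. These were Eif3m (132.5 CPM, against 156 to 161), Eif3f (95.1 CPM, against 107 to 109), Eif1 (161.3 CPM, against 206 to 213) and Eef1a1 (5084 CPM, against 5572 to 5613). No call of these members changed when any single library was left out.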

How the results depend on the processing

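All 63 tested members kept their direction and their side of the threshold with DESeq2 size factors, upper quartile scaling, the DESeq2 test, no low-count filter and without any single library, and the counts of 7 higher and 51 lower were the same in each. On TPM the members called higher were 14, those past 2-fold 12, and those called lower 6 in the TOP list, 2 in the helicase list and 5 among release and recycling genes, with either pseudocount (1 or 0.1). No share of all genes past 2-fold is given on TPM. On TPM the median of all genes was 0.3961 or 0.4505 with these pseudocounts, so part of such changes is shared by all genes. Among members and named pathway genes past the threshold on either scale, log2 changes that turned on TPM were, with a pseudocount of 1 and then 0.1, Eif2ak4 0.3272 and 0.3408, Eif4g2 0.2746 and 0.2748, Eif4enif1 0.2756 and 0.2781, Eif5 0.2251 and 0.2259, Eif3f 0.7548 and 0.7608, Eif1 0.2238 and 0.2242, Eif4h 0.1291 and 0.1296, and Ddx3x 0.148 and 0.1484. All but Eif3f lay below the median of all genes. Other called pathway genes that turned, with a pseudocount of 1, were Qars (0.1343), Paip2 (0.2007), Dhx36 (0.3289), Rps6kb1 (0.2439) and Dph1 (0.1911). With the length trend removed, members and named genes past the threshold in either fit that turned were Eif2ak1 (-0.5106), Eef1akmt2 (0.4402), Eif1 (0.49), Eif5a2 (-0.3337) and Ddx6 (-0.3454), and with an effective-length offset Eif3f (0.3457). Other called pathway genes that turned without the trend were Mcts2 (0.2057), Paip2 (0.03933), Ddx3y (-0.193) and Rptor (-0.3828). Past the threshold in neither fit, Eef1akmt2 turned to 0.08193 on TPM, Eif2ak3 to -0.05681 without the length trend and Eif2ak1 to -0.01912 with the offset. With protein-coding transcripts alone, Eif2s3y turned to -0.3585 and the Eif4a2 share to -0.4647 points. The cause was not tested. Members with transcripts in opposite directions were 8 at a 5% share and 3 to 8 without single libraries. Without single libraries the share differences ranged over 0.003555 to 0.004685 points for Eef1a2, 3.849 to 5.374 for Eif4a2 and 4.57 to 7.148 for Eif4g2. With the replicate number as a block, 7 members were higher and 51 lower, beside 42.41% and 39.05% of all genes. The labels do not say whether the replicate numbers pair the libraries. Deviations of same-numbered libraries correlated at only 0.0133 to 0.0597, and not every library correlated best with its own number. Such correlations cannot show whether the libraries were paired. Depth limits the 5 members too low to test and Eef1a2 in particular.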
